A study of Mus musculus with 20 samples.

Results

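Pyruvate kinase was both raised and lowered in mouse liver, and the genes described here are mainly those for which these effects differed. Many reversed direction between them, while others changed in 1 experiment only. The effect of raising Pklr (the gain effect, PKLR livers against GFP livers) was set against the effect of lowering it (the loss effect, shPKLR livers against shLUC livers) in 1 model of all 20 liver libraries of the series. The central quantity is the difference, the gain effect less the loss effect on the log2 scale, which is positive for a gene that was higher with more Pklr and lower with less. All 20 of the 20 libraries entered it, 10 from the knockdown experiment and 10 from the overexpression experiment.

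The livers came from male C57BL/6J mice that received an AAV8 vector by vein at 8 weeks of age and then a diet labelled HF/HS until 25 weeks. AAV8 is a virus capsid that delivers genes to the liver, and expression ran from the hepatocyte promoter of the thyroxine binding globulin gene. The 4 groups of 5 livers were shPKLR (a short hairpin RNA against Pklr), shLUC (a hairpin against firefly luciferase, the control of the knockdown), PKLR (the Pklr cDNA) and GFP (the control of the overexpression). Thus every liver, controls included, had a vector and the diet, and no uninjected or chow-fed group was part of the comparison. The labels do not give the hairpin's sequence or the origin of the cDNA, and they carry no animal identifiers, so p-values measure the spread between these liver samples.

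Pklr encodes the pyruvate kinase of liver and red cells, which makes pyruvate from phosphoenolpyruvate in the last step of glycolysis. In the fed liver, pyruvate enters mitochondria and leaves them as citrate, from which the cytosol draws acetyl-CoA for fatty acids and cholesterol. Pklr itself is a classical target of ChREBP (Mlxipl), a transcription factor that responds to sugar, while the SREBP factors (Srebf1 and Srebf2) drive the genes of lipid and sterol synthesis. INSIG1 holds the SREBP precursors in the endoplasmic reticulum when sterols are plentiful, and its own gene is an SREBP target.

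Library totals ran from 29933820 to 45413803 counts, apart from 167891680 in shPKLR replicate 4. Of 25238 genes listed in both tables, 16407 had enough counts to be tested. Summed levels of 6 hepatocyte markers were at 0.88 times the GFP mean with PKLR and at 1.00 times the shLUC mean with shPKLR, and all 6 were present, as liver tissue should have them. Levels below are CPM, counts scaled to a common library size, after scaling between libraries.

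Pklr (ENSMUSG00000041237, GRCm38 chromosome 3, 89136142 to 89146784, plus strand) was separated by vector in both experiments. It measured 376, 536, 355, 493 and 634 CPM in the shLUC livers and at 72.0, 53.0, 41.0, 25.4 and 83.3 CPM in the shPKLR livers. The GFP livers held 64.4, 103, 136, 144 and 144 CPM and the PKLR livers 769, 839, 913, 378 and 808 CPM. No liver of a treated group overlapped its own control, and the lowest PKLR liver, replicate 4, was still above every GFP liver. The gain effect was 2.65 (SE 0.30) and the loss effect -3.13 (SE 0.31) on the log2 scale. Their difference was 5.77 (SE 0.43, edgeR adjusted p = 2.0e-07). An exact two-sided permutation test within each experiment gave p = 3.15e-05, the smallest that its 63504 arrangements allow. The sum of both effects, which is 0 for a perfect mirror, was -0.48 (95% interval -1.32 to 0.36), an interval that holds 0 and both a stronger loss and a somewhat stronger gain. The controls differed from each other, with 479 ± 116 CPM (SD, n = 5) for shLUC and 118 ± 34.5 CPM (SD, n = 5) for GFP. The 2 control groups differ in vector and in experiment, which cannot be told apart. Reads of the vector's own Pklr RNA cannot be told apart from those of the mouse gene.

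Over all 16407 genes, edgeR called the difference for 902 (5.50% of those tested), 451 higher with gain less loss (2.75%) and 451 lower (2.75%). The count is the same in each direction, but the levels are not: the higher genes had a median of 26.3 CPM and the lower genes of 3.25 CPM. Of the 902 genes, 897 had effects of opposite sign, which choosing genes by the difference largely fixes, and of all genes tested 63.3% had opposite signs. A stricter count asked for opposite signs with an unadjusted p under 0.05 in each experiment on its own. These reversed genes numbered 584 (3.56% of those tested), 319 higher with gain and lower with loss (1.94%) and 265 the other way (1.62%). Genes that moved the same way at that level in both experiments numbered 64 (0.39%). The least model-dependent count is of genes for which no liver overlapped its own control, in opposite directions in the 2 experiments. There were 68 such separated genes (0.414% of those tested), 56 higher with gain (0.341%) and 12 lower (0.0731%), against 0 separated in the same direction. Within single experiments, non-overlapping groups were found for 4.75% of genes in the gain experiment and 3.15% in the loss experiment.

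Most of these genes were called through both experiments jointly rather than through either. On its own the gain effect was called for 338 genes (2.06%) and the loss effect for 114 (0.695%). Among the 902, 229 passed in the gain effect, 100 in the loss effect, 24 in both and 597 in neither. The 24 genes that passed in both effects all had opposite signs. They included Pklr, Hcn3, the sterol genes Insig1, Mvd, Lss and Fdft1, and the lipogenic genes Acss2, Acaca, Acacb and Pnpla3. Also among them were Rdh11, Hsd17b6, Csrp2, Tuba8, Tuba1c, Mas1, Zdhhc2, Gm32540, Vac14, Aqp8, Nat8f7, Dnaic1 and Tmigd1. These names were chosen after its values were seen. Leaving out shPKLR replicate 4, the deepest library, and GFP replicate 1, which had the most cell cycle transcripts, left 524 calls, of which 492 were among the 902. Single libraries also moved the count by over 1.5 times. It was 485 without shLUC replicate 2, 600 without shLUC replicate 5, 517 without GFP replicate 1, 588 without GFP replicate 4, 577 without PKLR replicate 3 and 1384 without shPKLR replicate 2.

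**Figure D1:**
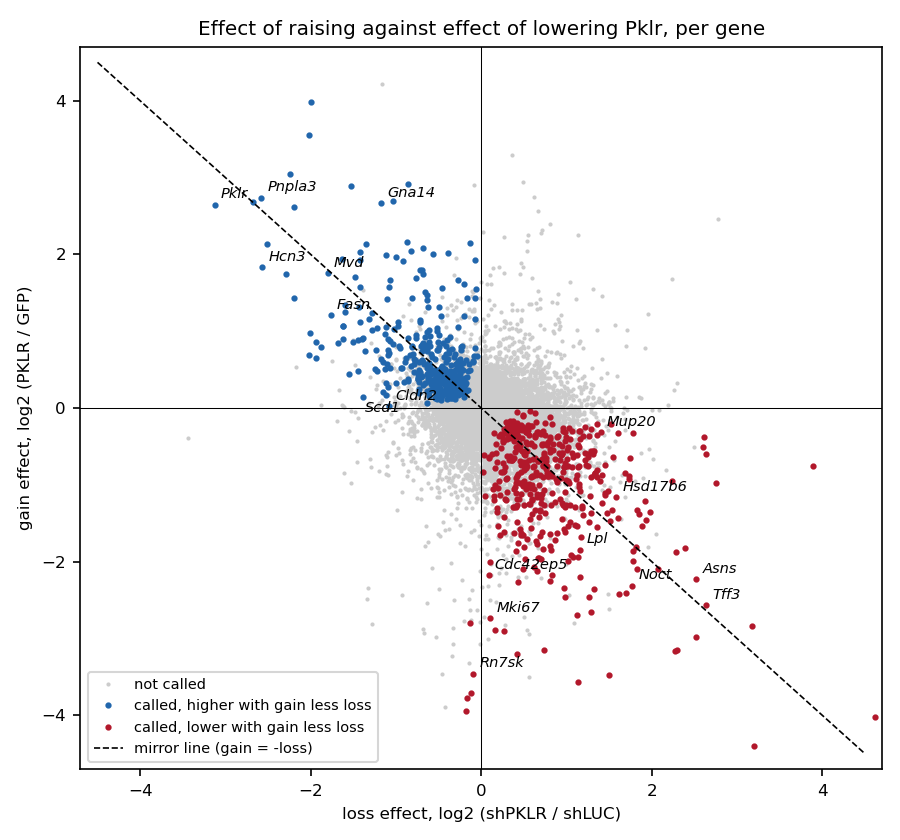
Gain effect (vertical axis, log2 PKLR over GFP) against loss effect (horizontal axis, log2 shPKLR over shLUC) for each gene tested, with the 451 genes called higher in the difference in blue, the 451 called lower in red and a dashed line where gain mirrors loss. Blue genes fill the upper left and red genes the lower right, with Pklr and Pnpla3 near the line and Cdc42ep5, Mki67 and Rn7sk close to the vertical axis. One gene lies outside the axes.

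How symmetric the effects were was read from the gain share, the gain effect divided by the gain effect less the loss effect, which is 0.5 for a mirror, 1 where the whole difference comes from raising Pklr and 0 where it comes from lowering it. The median gain share of the 902 genes was 0.497 (interquartile range 0.396 to 0.628). Between 0.33 and 0.67 lay 624 genes (69.2%), with 115 below that range and 158 above it up to 1, and 5 above 1. The median size of the gain effect was 0.60 and that of the loss effect 0.57. Higher genes had a median share of 0.470 and lower genes of 0.522. Leaving out single libraries put the median over all called genes between 0.444 and 0.541. The share is a description, since calling a gene by the difference favours genes in which both effects contribute.

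The direct test of unequal size is the sum of the 2 effects, which also departs from 0 where both run the same way. With edgeR the sum was called for 0 of 16407 genes. At an unadjusted p under 0.05 it picked out 1561 genes (9.51%), of which 1237 had effects of the same sign, and DESeq2 called 57. Among the 902 genes, 138 (15.3%) had a 95% interval of the sum that did not include 0. The median interval reached 0.617 to either side of its estimate, about the size of a typical single effect. That interval is not adjusted over all genes, so a call of the sum asks for more than that. The sum of Cdc42ep5, for example, was -2.09 and not called (edgeR adjusted p = 0.074). A count of 0 calls therefore does not show that effects were equal in size. Across all 16407 genes, which are not independent replicates, the gain and loss effects had a Pearson correlation of -0.33 and a Spearman correlation of -0.35. They share no library, though they share the scaling and the genes' own variability. Over the 7496 genes above 10 CPM these values were -0.31 and -0.35.

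**Figure D2:**
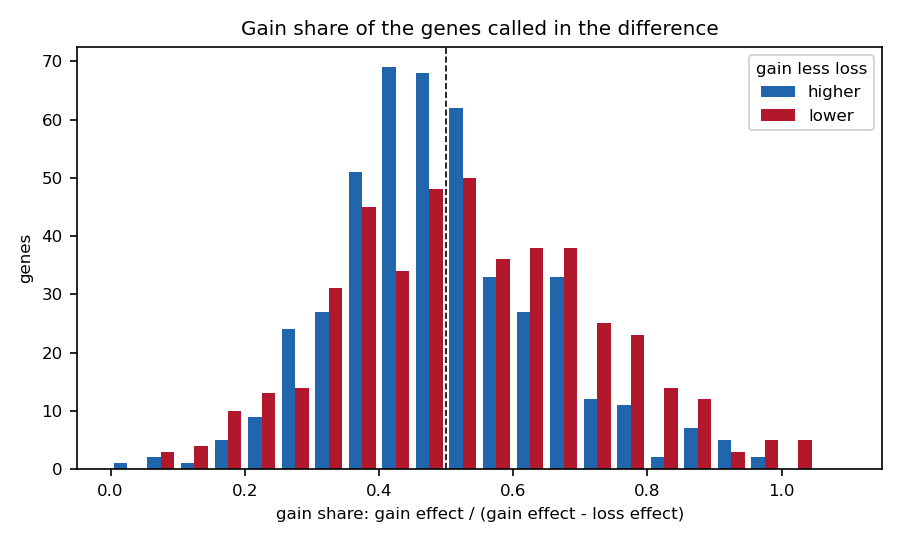
Number of genes (vertical axis) by gain share (horizontal axis, no unit) for the genes called higher (blue) and lower (red) in the difference, with a dashed line at equal shares. Both groups pile up around the line, with medians of 0.470 and 0.522, and the lower genes spread further towards 1.

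Algebraically the difference equals the sum of PKLR and shLUC less the sum of GFP and shPKLR, so both controls count as much as both treated groups. Group levels show how that played out. In 448 of the 451 higher genes the shLUC mean was above the GFP mean, and in all 451 lower genes it was below it, where 74.5% of all genes tested had that order for their direction. Since the choice of genes uses these levels, this is a description. Both control means lay between the treated means, as an order by Pklr dose would have it, in 75 of the higher genes (16.6%) and 69 of the lower (15.3%), against 24.9% of all genes tested, each taken in the direction of its own difference. In 209 of the higher genes (46.3%) shLUC was above PKLR and GFP below shPKLR, and 202 of the lower genes (44.8%) had the mirror of that, against 26.9% of all genes tested. In that order of means the controls lie further apart than the treated groups. Fasn had that order, at means of 1418, 417, 399 and 922 CPM in shLUC, shPKLR, GFP and PKLR. Whether the distance between the controls goes with their vectors or with the experiments cannot be told apart.

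**Figure D3:**
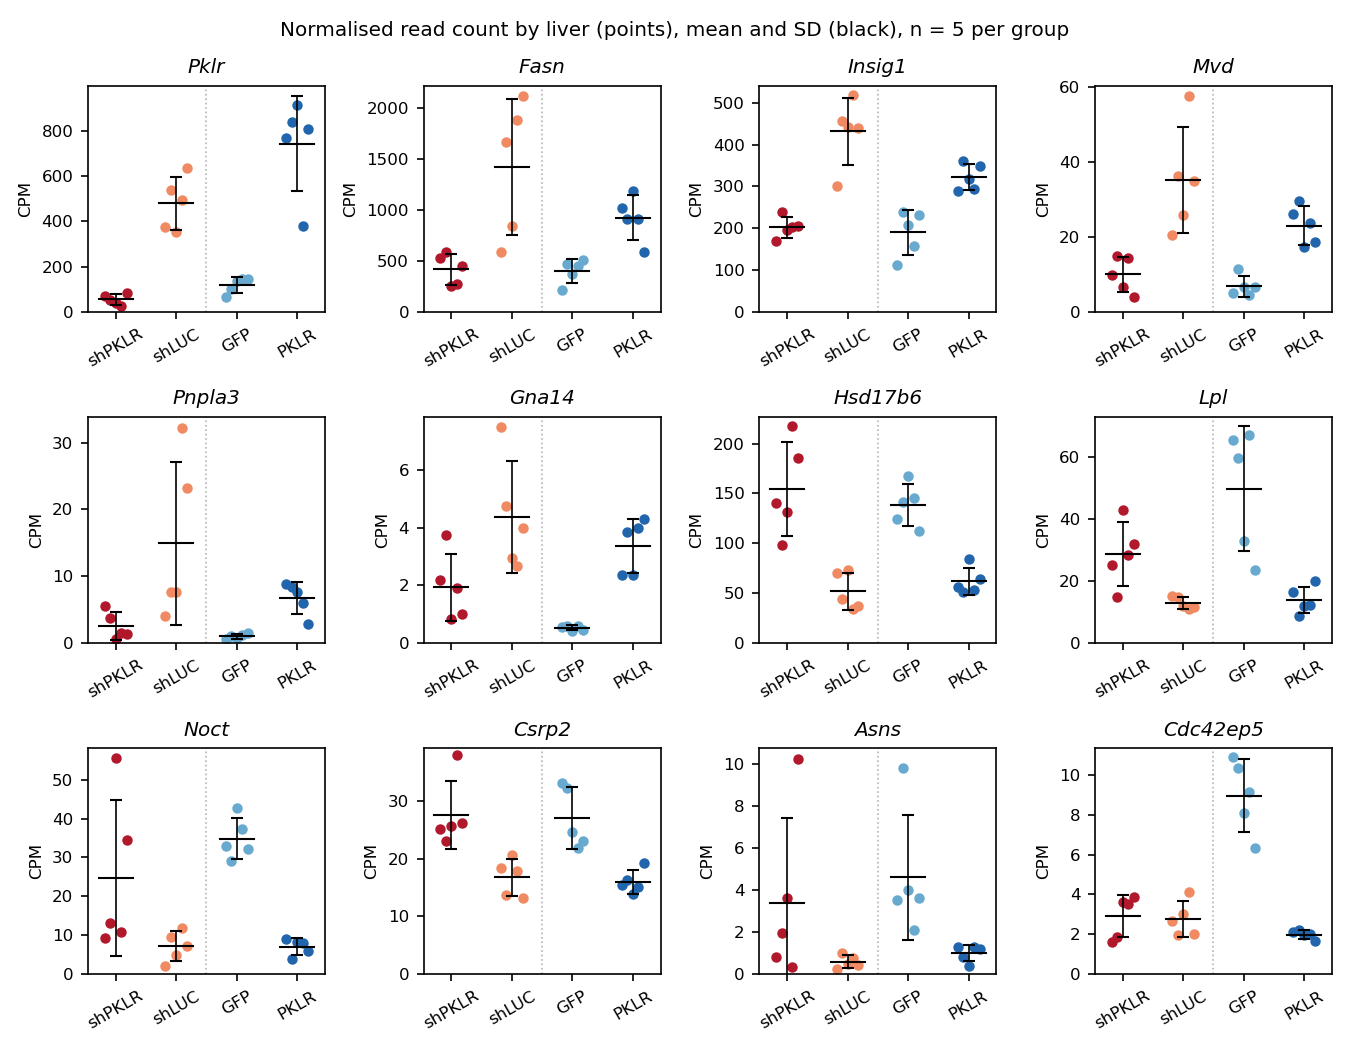
CPM (vertical axes, linear, each with its own scale) of 12 genes in each liver, in the order shPKLR, shLUC, GFP and PKLR, with the mean and SD of 5 livers in black and a dotted line between the experiments. Pklr, Fasn, Insig1 and Mvd are low in shPKLR and GFP and high in shLUC and PKLR, Hsd17b6 and Csrp2 show the opposite, and in Cdc42ep5 the GFP livers stand alone.

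Cholesterol synthesis was the gene list with the largest share of calls among the 26 lists. Of its 22 tested members, 17 were called higher in the difference and 0 lower (77.3%, beside 5.50% of all genes). Reversed genes made up 16 of the 22, beside 3.56% of all genes. The median gain effect was 0.71, the median loss effect -0.997 and the median difference 1.78, where all genes tested had medians of -0.01, 0.04 and -0.06. Without shPKLR replicate 4 and GFP replicate 1, 15 members were called, and 15 was also the lowest count when single libraries were left out. The called genes ran from the early steps (Hmgcs1, difference 2.30) through the isoprenoid steps (Mvk, Pmvk, Mvd, Idi1 and Fdps) and the squalene steps (Fdft1, Sqle and Lss) to the sterol steps (Cyp51, Tm7sf2, Msmo1, Nsdhl, Hsd17b7, Sc5d and Dhcr7). Members that did not pass included Acat2, Ebp, Fdx1 and Ggps1, with differences between -0.30 and 0.51.

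Mvd, the mevalonate diphosphate decarboxylase (ENSMUSG00000006517, chromosome 8, 122433601 to 122443422, minus strand), was at 20.6, 36.2, 26.0, 57.6 and 34.9 CPM in the shLUC livers and 9.93, 14.9, 6.75, 14.5 and 3.95 CPM in the shPKLR livers. GFP livers had 4.90, 11.5, 6.71, 4.44 and 6.58 CPM and PKLR livers 26.2, 29.5, 17.2, 23.6 and 18.5 CPM. Neither experiment showed an overlap, and every shLUC and PKLR liver was above every shPKLR and GFP liver. Its gain effect of 1.75 (SE 0.33) and loss effect of -1.80 (SE 0.33) gave a difference of 3.55 (SE 0.47, adjusted p = 0.00045) and a sum of -0.05 (95% interval -1.001 to 0.90). Lss, which closes squalene epoxide into the first sterol, had a sum closer to 0 than any other member. Its means were 50.0, 24.7, 23.5 and 47.9 CPM in shLUC, shPKLR, GFP and PKLR, its effects 1.03 and -1.02, and its sum 0.01 (95% interval -0.61 to 0.62). Sqle, the squalene epoxidase, had the largest difference of the list, 3.58 (SE 0.58, adjusted p = 0.0017).

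Across the list the loss effect was the larger of the pair in 17 of 22 members and the sum was negative in 16, with a median of -0.18. Of all 16407 genes tested, the loss effect was the larger in 9754 and the sum was negative in 7912, with a median of 0.01. One member, Ggps1, had a sum with an unadjusted p under 0.05, and it was not among the called genes. For the other members the interval of the sum held 0.

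**Figure D4:**
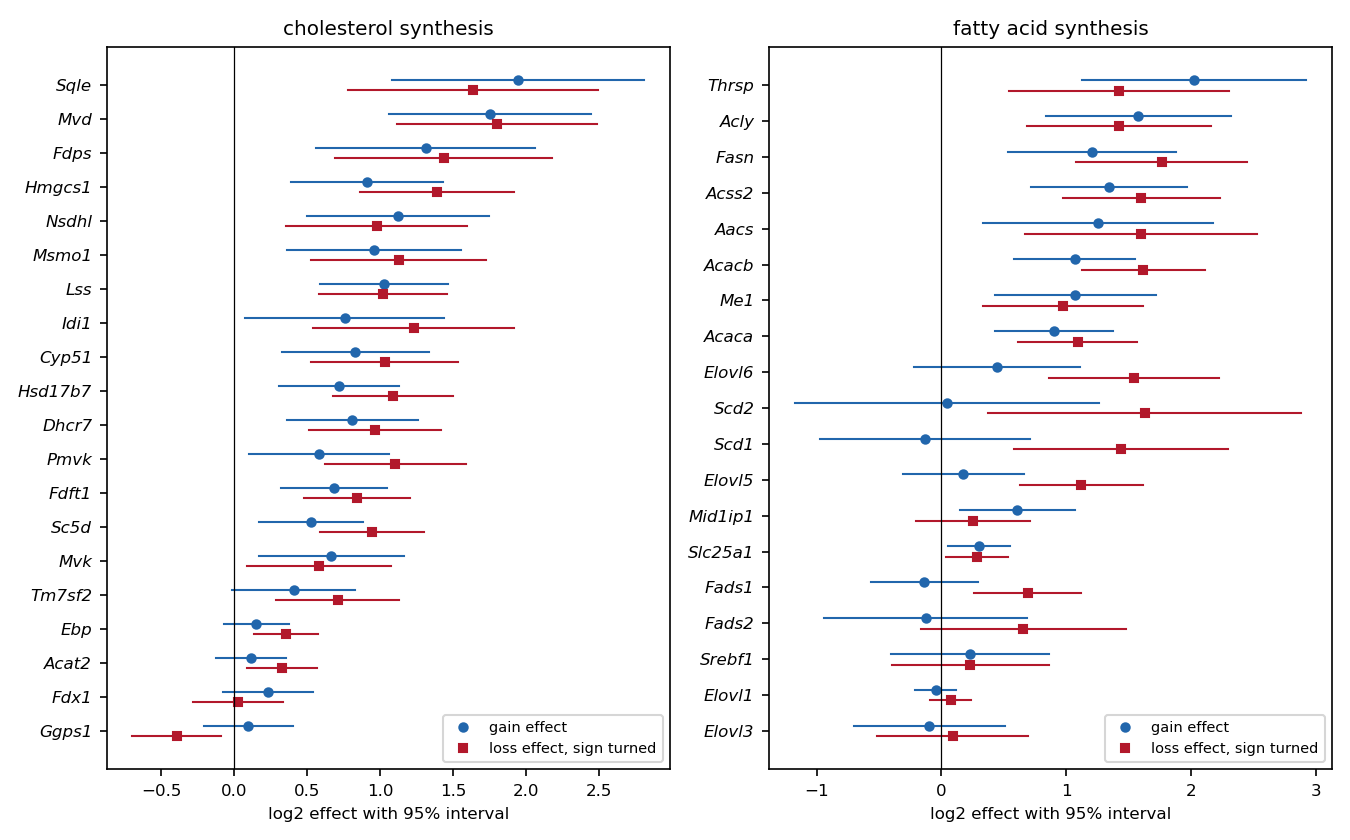
Gain effect (blue circles) and loss effect with its sign turned (red squares), in log2 units with 95% intervals, for tested members of cholesterol synthesis (left; 20 of 22 drawn) and fatty acid synthesis (right). Overlapping blue and red marks are mirrored effects, as for Lss and Mvd, while Elovl6, Scd1 and Elovl5 show a red mark far to the right of the blue one.

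Of the genes that sense sterols and take up cholesterol, 5 of 12 tested were called, all higher (41.7%, beside 5.50% of all genes). Insig1, Stard4 and Srebf2 were among them, and the list's median difference was 0.82. Insig1 (chromosome 5, 28071363 to 28078662, plus strand) stood at 302, 455, 441, 519.8 and 441 CPM with shLUC and 168.4, 239, 196, 203 and 205 CPM with shPKLR. With GFP it stood at 113, 239, 208, 156 and 232 CPM and with PKLR at 289, 360.2, 318, 294 and 348 CPM. All shLUC and PKLR livers were above all shPKLR and GFP livers. The difference was 1.85 (SE 0.24, adjusted p = 0.00045) and the sum -0.33 (95% interval -0.84 to 0.17). Srebf2, the SREBP gene of sterol synthesis, had a small and even response, with 0.49 for gain and -0.57 for loss (difference 1.06, SE 0.22, adjusted p = 0.0097). Stard4, a sterol carrier, had effects of 0.74 and -0.70 and a sum of 0.04. Insig2 had effects of -0.02 and -0.65 and was not called (difference 0.63, adjusted p = 0.19).

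In fatty acid synthesis 11 of 19 tested members were called higher and 0 lower (57.9%, beside 5.50% of all genes). The list had a median gain effect of 0.45, a median loss effect of -1.12 and a median difference of 1.67. With shPKLR replicate 4 and GFP replicate 1 left out, 8 of the 19 were called. The called members were the citrate carrier Slc25a1 and the enzymes that supply acetyl-CoA and NADPH in the cytosol (Acly, Acss2 and Me1). Also called were the carboxylases Acaca and Acacb, the synthase Fasn, the elongases Elovl5 and Elovl6, the lipogenic regulator Thrsp and the acetoacetyl-CoA synthetase Aacs. Thrsp had the largest difference of the called members, 3.45.

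Fasn (chromosome 11, 120805846 to 120824547, minus strand) was at 589.7, 1667, 836, 1879.7 and 2115 CPM in shLUC livers and 525, 589.7, 252, 269 and 449 CPM in shPKLR livers. GFP livers held 212, 466, 366, 449 and 504 CPM and PKLR livers 1020.0, 909, 1185, 910.4 and 588 CPM. Neither treated group overlapped its own control, but in the knockdown the lowest control and the highest treated liver touched. The shLUC livers fell into a low pair and a high trio. The difference was 2.97 (SE 0.46, adjusted p = 0.0012), with 1.21 from gain and -1.77 from loss. Acacb, the carboxylase that also makes the malonyl-CoA restraining fatty acid oxidation, had 114, 212, 119, 197 and 258 CPM with shLUC and 60.1, 78.7, 45.8, 48.4 and 60.3 CPM with shPKLR. It had 46.0, 76.3, 80.9, 62.4 and 90.7 CPM with GFP and 162, 169, 174, 152 and 90.7 CPM with PKLR. The groups were apart in both experiments, though PKLR replicate 5 was level with the highest GFP liver. Acacb's difference was 2.69 (SE 0.33, adjusted p = 0.00028), the second smallest p of the genes higher with gain less loss. Acss2 (difference 2.94), Acaca (2.00), Acly (3.01) and Me1 (2.05) had gain shares between 0.45 and 0.53. Acss2 lies over Gss on the opposite strand and Acaca over the predicted gene Gm11437, and the strand setting of the counts is not given, so reads of the partners cannot be told apart from theirs. Gss itself had a difference of -0.63 and Gm11437 of 1.27.

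Effects of the desaturases and elongases varied in balance. Elovl6, which extends palmitate, fell with the loss of Pklr (-1.55, SE 0.33, adjusted p = 0.034), while the gain effect was 0.45 (SE 0.32, adjusted p = 0.59). Its gain share was 0.22. Elovl5 had 0.18 with gain and -1.12 with loss. Scd1, the main hepatic desaturase and one of the most abundant transcripts here, was at means of 14342, 5279.6, 9626 and 8776 CPM in shLUC, shPKLR, GFP and PKLR. Its effects of -0.13 and -1.44 ran the same way, and its difference of 1.31 was not called (adjusted p = 0.16). The sums of Elovl5, Elovl6, Scd1 and Fads1 had unadjusted p-values of 0.0094, 0.025, 0.012 and 0.0097, all negative, and none passed after adjustment over all genes. The sums of Scd2, Fads2, Elovl1 and Elovl3 were -1.58, -0.78, -0.12 and -0.19, with unadjusted p-values of 0.072, 0.17, 0.29 and 0.66. Srebf1, the lipogenic SREBP gene, had 0.23 and -0.23 (difference 0.46, adjusted p = 0.51).

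Promoters of these genes are shown because CCAAT, the core of the site of the factor NF-Y, was frequent in them. Promoter windows of 300 bases, from 250 bases before to 50 after the start, were taken from RefSeq on GRCm38.p6, and 318 of the 451 higher genes and 322 of the 451 lower genes matched an entry. CCAAT, read on both strands (as ATTGG on the other), stood in the window of 180 of the 318 higher genes (56.6%) and 146 of the 322 lower genes (45.3%). Among all 10922 tested genes with a window the share was 42.7%, and among all 27025 genes with a window 41.1%. Counted by window, 37.4% of all 32851 held it. Of 17 cholesterol synthesis genes with a window, 15 had it, and 10 of 15 fatty acid synthesis genes. The E-box CACGTG, which reads the same on both strands, was in 15.7% of the higher genes, 8.07% of the lower and 11.3% of all tested genes. It was in 8.09% of all genes with a window and 7.15% of all windows. TCACNCCAC, a core of the sterol regulatory element, was rarer, with 2.20%, 1.86% and 1.52% of the higher, lower and tested genes. It was in 1.44% of all genes with a window and 1.24% of all windows. The carbohydrate response element, searched as a pair of exact E-boxes with a 5-base spacer, was found in 0 windows. These are letter matches and not measured binding sites.

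Stretches of 150 bases directly before the start follow for 5 called genes with CCAAT there and for Insig1, 5′ to 3′ on the gene's own strand, with CCAAT or ATTGG (in Insig1 the E-box) in capitals.
Mvd (chr8:122443423-122443572, minus strand): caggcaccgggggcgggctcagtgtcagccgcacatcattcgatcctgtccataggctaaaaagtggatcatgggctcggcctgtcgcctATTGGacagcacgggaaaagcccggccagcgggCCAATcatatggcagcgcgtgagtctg
Lss (chr10:76531455-76531604, plus strand): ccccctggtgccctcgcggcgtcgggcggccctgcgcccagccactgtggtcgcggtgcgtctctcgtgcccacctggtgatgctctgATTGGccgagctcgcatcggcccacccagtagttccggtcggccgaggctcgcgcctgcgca
Acss2 (chr2:155517893-155518042, plus strand): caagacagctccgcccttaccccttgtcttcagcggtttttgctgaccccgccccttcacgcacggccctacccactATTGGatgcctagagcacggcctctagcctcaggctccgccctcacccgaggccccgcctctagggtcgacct
Fasn (chr11:120824548-120824697, minus strand): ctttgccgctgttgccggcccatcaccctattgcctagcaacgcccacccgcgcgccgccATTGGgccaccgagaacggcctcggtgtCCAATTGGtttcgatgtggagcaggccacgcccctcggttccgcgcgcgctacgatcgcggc
Pnpla3 (chr15:84167666-84167815, plus strand): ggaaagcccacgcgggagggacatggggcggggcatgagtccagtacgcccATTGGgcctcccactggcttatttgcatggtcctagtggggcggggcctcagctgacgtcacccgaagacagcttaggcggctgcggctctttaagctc
Insig1 (chr5:28071262-28071411, plus strand): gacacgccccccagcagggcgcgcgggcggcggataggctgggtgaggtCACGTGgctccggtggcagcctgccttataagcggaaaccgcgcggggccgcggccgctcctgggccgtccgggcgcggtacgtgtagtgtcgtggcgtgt
Counted from a match's first base to the start, the matches lay 60 and 27 bases before it in Mvd, 62 in Lss, 73 in Acss2, 99 in Pnpla3, and 90, 62 and 59 in Fasn. In Fasn the last 2 matches overlap, as CCAATTGG reads CCAAT on either strand. Mvd and Fasn, with more than 1 match, had differences of 3.55 and 2.97. Lss, Acss2 and Pnpla3, with 1 match, had 2.04, 2.94 and 5.32, so the number of matches gave no order.

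Sugar-responsive genes were called in 5 of 15 cases (33.3%, beside 5.50% of all genes), all higher (Pnpla3, Tkfc, Khk, Slc2a2 and Tkt). The minimum was 3, without PKLR replicate 3. Pnpla3, a lipase of the lipid droplet, had a difference of 5.32 (SE 0.81, adjusted p = 0.0012). It was at 4.05, 7.58, 7.61, 32.3 and 23.2 CPM with shLUC and 5.58, 3.76, 0.580, 1.45 and 1.32 CPM with shPKLR. It was at 0.558, 1.104, 0.724, 1.14 and 1.52 CPM with GFP and 8.80, 8.43, 7.70, 5.91 and 2.78 CPM with PKLR. The GFP livers were all below the PKLR livers, while in the knockdown shPKLR replicate 1 was above shLUC replicate 1. Khk and Tkfc, which handle fructose, had gain effects of 0.76 and 0.84 and loss effects of -0.35 and -0.45. Slc2a2, the glucose transporter of hepatocytes, had near mirrored effects of 0.46 and -0.48. Mlxipl, the gene of ChREBP, had 0.35 and 0.45 and did not reverse (difference -0.09, adjusted p = 0.9). Txnip, G6pc, Fgf21 and Arrdc4, other genes of the list, were not called, with differences of -0.65, -0.48, -1.61 and -0.06.

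Around the pyruvate step, 4 of 17 genes of glycolysis and gluconeogenesis (23.5%) and 4 of 24 of the pyruvate and citrate cycle list (16.7%) were called, beside 5.50% of all genes. In glycolysis and gluconeogenesis 2 of 17 members were called higher (among them Pcx, the pyruvate carboxylase, 0.93) and 2 lower (Pck1, -1.61, and Hk2, -1.50). Pck1, which makes phosphoenolpyruvate and so runs against pyruvate kinase, was at means of 849.9, 1449.6, 2139 and 1195 CPM in shLUC, shPKLR, GFP and PKLR, with effects of -0.84 and 0.77 and a gain share of 0.52. Pkm, the other pyruvate kinase gene, was not called (difference -0.81, adjusted p = 0.08). The pyruvate and citrate cycle list had 4 of 24 called, all higher: Pdk1, which inhibits pyruvate dehydrogenase (1.68, SE 0.27, adjusted p = 0.0015), the citrate synthase Cs (1.07, SE 0.17), Dlat (1.11) and Idh1 (0.59). In Pdk1 the groups did not overlap in either experiment, with means of 96.3, 56.6, 42.3 and 79.6 CPM. Pdk4, a kinase of the same target, had negative effects in both experiments (-1.80 and -0.66) and was not called in the difference. Of the pentose phosphate genes Pgd (1.61, with effects of 0.81 and -0.81) and Tkt (0.99, with 0.53 and -0.46) were called higher.

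In fatty acid oxidation 2 of 24 tested members were called (8.33%, beside 5.50% of all genes). None was called higher, and 2, the acyl-CoA thioesterases Acot1 and Acot2, were called lower. Both are close paralogs whose reads may be shared, and both stood highest in GFP replicate 1. The call of Acot2 was lost under 22 of 32 alternatives and that of Acot1 under 0. Cpt1a, the gate of mitochondrial oxidation, had a difference of -0.29 (adjusted p = 0.56). The list's median effects were negative in both experiments. Among lipid droplet and triglyceride genes 4 of 23 were called higher (Cidea, Gpam, Agpat2 and Dgat2) and 2 lower (Lpl and Fabp4), 26.1% of the list. Gpam, the first acyltransferase of glycerolipid synthesis, had 2.52 (SE 0.57) and Dgat2, the last, 1.01. Of 15 lipoprotein genes (6.67% called) only Mttp, which loads lipid onto apoB, was called (0.80, SE 0.19, adjusted p = 0.019). DESeq2 called 1 more, lower.

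Among genes of at least 2 CPM, the smallest p of those lower with gain less loss was that of Hsd17b6, a hydroxysteroid dehydrogenase (ENSMUSG00000025396, chromosome 10, 127990936 to 128007611, minus strand). It was at 69.9, 44.2, 73.0, 33.9 and 37.4 CPM with shLUC and 141, 97.7, 131, 217 and 185 CPM with shPKLR. It was at 125, 141, 167.6, 146 and 112 CPM with GFP and 55.8, 51.3, 84.6, 53.3 and 64.5 CPM with PKLR. Every shPKLR and GFP liver was above every shLUC and PKLR liver. The difference was -2.74 (SE 0.32, adjusted p = 0.00018), from -1.16 with gain and 1.58 with loss. Csrp2, a LIM-domain protein, had 18.4, 13.7, 20.6, 17.8 and 13.3 CPM with shLUC, 25.2, 23.1, 25.7, 38.0 and 26.3 CPM with shPKLR, 33.2, 32.4, 24.7, 21.9 and 23.1 CPM with GFP and 15.4, 16.3, 13.9, 15.04 and 19.3 CPM with PKLR. It too was separated in both experiments, and with effects of -0.76 and 0.73 its sum was -0.03 (95% interval -0.49 to 0.43), one of the closest mirrors among the named genes.

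Lpl, the lipoprotein lipase, normally low in adult hepatocytes, was at 14.99, 14.8, 12.0, 10.8 and 11.5 CPM with shLUC and 25.3, 14.7, 43.0, 28.3 and 31.8 CPM with shPKLR. With GFP it reached 65.4, 59.7, 32.98, 67.2 and 23.5 CPM and with PKLR 16.4, 8.72, 12.1, 12.3 and 19.8 CPM. The overexpression groups were apart, and in the knockdown only shPKLR replicate 2 lay within the control range. Its difference was -3.004 (SE 0.41, adjusted p = 0.0005). Noct, a phosphatase of NADP coenzymes with a daily rhythm in liver, had 9.15, 13.1, 55.5, 10.7 and 34.4 CPM in shPKLR livers, where replicates 1, 2 and 4 were near the shLUC livers at 2.15, 9.61, 4.97, 11.9 and 7.14 CPM. GFP livers were high throughout, at 32.9, 29.1, 42.8, 37.4 and 32.1 CPM, and PKLR livers low, at 9.09, 3.89, 8.16, 8.05 and 5.78 CPM. The difference was -4.09 (SE 0.63, adjusted p = 0.0013), and it was the 1 called gene of 19 clock genes tested (5.26%, about the share of all genes).

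Low-level genes with larger differences were Tff3, a secreted trefoil peptide (-5.20, SE 1.12), Asns, the asparagine synthetase (-4.74, SE 0.97), and Gpnmb, a macrophage glycoprotein (-4.71, SE 1.08). The calls of Tff3 and Gpnmb were each lost under 2 of 32 alternatives, limma-voom among them. Asns was at 0.242, 1.02, 0.446, 0.778 and 0.412 CPM with shLUC and 0.813, 1.94, 3.61, 0.332 and 10.2 CPM with shPKLR. It was at 3.53, 9.78, 3.97, 2.07 and 3.604 CPM with GFP and 1.30, 0.796, 0.381, 1.28 and 1.16 CPM with PKLR. Every GFP liver was above every PKLR liver, but 2 of the 5 shPKLR livers lay inside the control range, and limma-voom did not call the gene (adjusted p = 0.10). The only other called member of the 20 amino acid and integrated stress genes (10% called, beside 5.50% of all genes) was Phgdh, of serine synthesis. It was at under 1 CPM in every group mean. Enho, which encodes the peptide adropin, had -3.39 (SE 0.70, adjusted p = 0.0095) with means of 3.16, 12.0, 15.1 and 5.53 CPM in shLUC, shPKLR, GFP and PKLR.

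**Figure D5:**
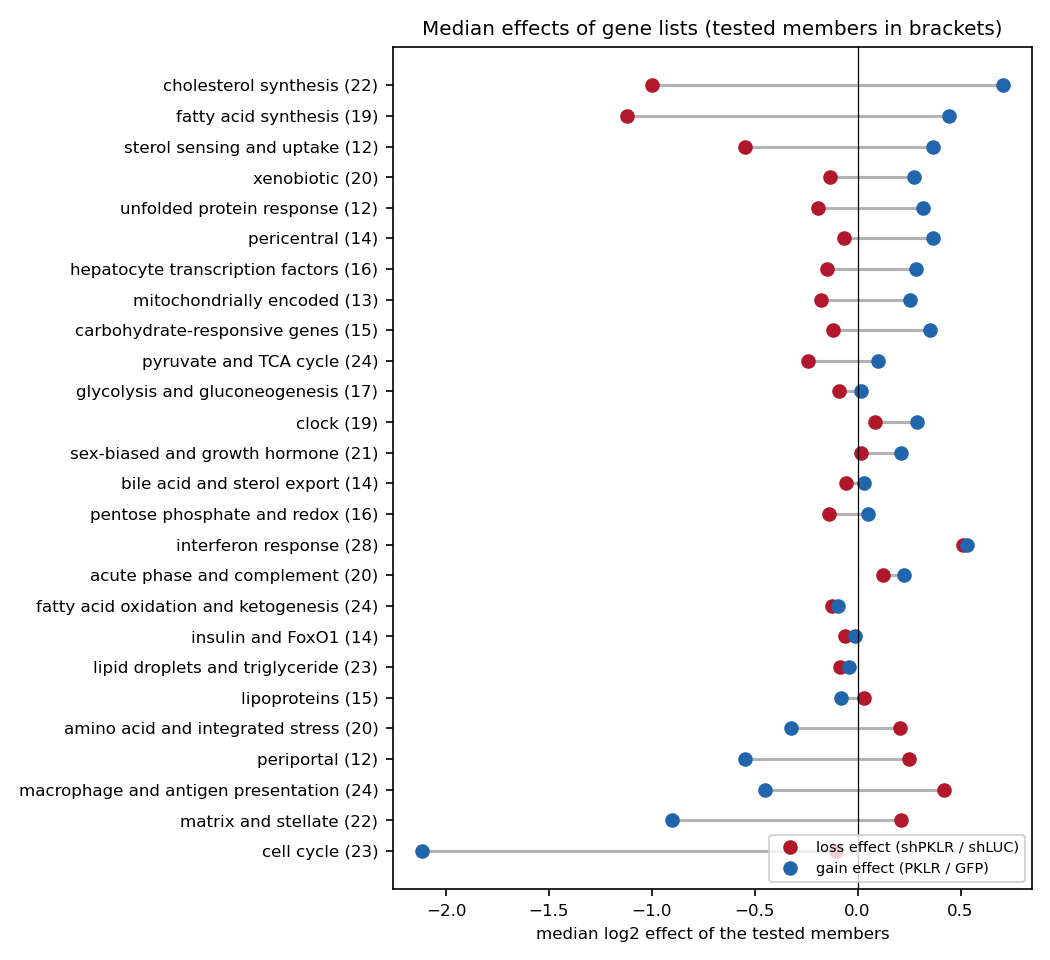
Median log2 gain effect (blue) and loss effect (red) of the tested members of 26 gene lists, with the number of tested members in brackets. Lists are ordered by the median difference of their members, with its sign. Cholesterol and fatty acid synthesis lie across 0 with the gain to the right, matrix and macrophage genes lie across 0 the other way, cell cycle genes have a median loss effect near 0, and the interferon response has both medians at about 0.5.

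Matrix and macrophage lists held calls in the lower direction. Of the shorter marker sets, 2 of 6 stellate and 1 of 6 macrophage markers were called lower. Called in the other sets were 0 of 6 endothelial, 0 of 5 cholangiocyte, 0 of 6 lymphocyte and 0 of 6 erythroid markers tested. With 5.50% of all genes called, sets this small would mostly hold 0 calls, so these counts do not set them apart. In bulk tissue, fewer cells of a type and less RNA per cell cannot be told apart. Of 22 matrix and stellate genes 10 were called lower and 0 higher (45.5%, beside 5.50% of all genes). The median gain effect was -0.90 and the median loss effect 0.21, so most of the difference came from the gain experiment. With shPKLR replicate 4 and GFP replicate 1 left out, 2 of the 22 were called lower. Mmp2, a gelatinase, had -1.12 with gain and 0.47 with loss, and Loxl1, which cross-links elastin, -1.06 and 0.53. Bgn (0.03) and Thbs2 (0.04) had loss effects near 0 and gain shares of 0.97 and 0.96, and their calls were lost under 19 and 17 of 32 alternatives. The summed level of 6 stellate markers ranged from 166 to 429 CPM in GFP livers and from 103 to 235 CPM in PKLR livers, and from 113 to 183 CPM with shLUC and from 94.0 to 191 CPM with shPKLR. None of the 6 was at 0, and their part in the result was not tested.

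Macrophage and antigen presentation genes were called lower in 4 of 24 cases (Gpnmb, Trem2, Itgax and Marco) and higher in 0 (16.7%, beside 5.50% of all genes). When shPKLR replicate 4 and GFP replicate 1 were left out, 2 were called lower. In this list 20 members had a negative gain effect with a positive loss effect, and the medians were -0.45 and 0.42. Of all 16407 genes tested, 5759 had these signs. Gpnmb was at 17.0, 15.6, 3.69, 7.79 and 1.46 CPM in GFP livers and 1.91, 0.236, 0.680, 0.416 and 0.493 CPM in PKLR livers. In the knockdown it was at 0.139, 0.222, 0.414, 0.623 and 0.195 CPM with shLUC and 0.145, 0.376, 2.35, 0.252 and 0.629 CPM with shPKLR. GFP replicates 1 and 2 were far above the rest, and both experiments overlapped. Marco, a scavenger receptor of Kupffer cells, varied widely within groups (GFP, 45.7, 18.2, 4.98, 29.99 and 2.44 CPM), and its call was lost under 16 of 32 alternatives. The mean summed level of 6 macrophage markers was 0.81 times control with PKLR and 1.53 times control with shPKLR. The medians were 192 CPM with GFP, 201 CPM with PKLR, 118 CPM with shLUC and 215 CPM with shPKLR, so in the gain experiment mean and median differ in direction, with 1 GFP liver at 387 CPM. The ranges were 79.8 to 387 CPM with GFP, 67.9 to 208 CPM with PKLR, 103 to 178 CPM with shLUC and 87.3 to 269 CPM with shPKLR, so the groups overlapped. Their part in the result was not tested.

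In cell cycle genes the gain effect made up most of the difference. Of 23 tested, 5 were called lower (Mki67, Ccnb2, Cdk1, Birc5 and Ube2c), 21.7% beside 5.50% of all genes. The median gain effect was -2.12 and the median loss effect -0.10. The gain effect was called for 16 of the 23, beside 2.06% of all genes. Mki67, the proliferation marker, was at 48.1, 6.21, 9.32, 11.01 and 2.90 CPM with GFP and 4.95, 1.74, 1.66, 1.43 and 1.76 CPM with PKLR, but at 1.11, 1.87, 1.91, 3.02 and 2.82 CPM with shLUC and 3.80, 0.876, 2.28, 2.94 and 1.59 CPM with shPKLR. GFP replicate 1 was far above all other livers, and the knockdown groups covered the same range. Mki67's call was lost under 22 of 32 alternatives. Without shPKLR replicate 4 and GFP replicate 1, 3 of the 23 genes were called, and leaving out single libraries gave between 3 and 14.

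One-sided single genes came in both forms. Cdc42ep5, a Cdc42 effector, was at 10.9, 10.4, 8.09, 9.15 and 6.34 CPM with GFP and 2.08, 2.21, 1.96, 1.99 and 1.66 CPM with PKLR. Its knockdown livers were at 2.67, 1.93, 3.03, 4.14 and 2.02 CPM with shLUC and 1.63, 1.88, 3.61, 3.54 and 3.86 CPM with shPKLR. Only the GFP livers stood apart. The gain share was 0.96, and the sum of -2.09 (95% interval -2.80 to -1.38) had an adjusted p of 0.074. Igfbp1, an insulin-suppressed binding protein, was alike in pattern, with means of 16.4, 17.8, 64.3 and 16.0 CPM in shLUC, shPKLR, GFP and PKLR and effects of -2.01 and 0.11. Cyp2c37, a cytochrome P450 with close paralogs, had a low mean in the GFP group only (205, 187, 49.0 and 217 CPM, in the same order). Its shPKLR livers varied widely, with an SD of 107 CPM. Rn7sk, the 7SK RNA, was at 14.3 CPM with GFP and at 2.04, 1.86 and 1.29 CPM with shLUC, shPKLR and PKLR. It and 3 predicted copies of it (Gm24447, Gm26035 and Gm26315) are, with Ube2c, the 5 called genes whose effects had the same sign. Reads of the copies cannot be told apart.

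The opposite form rested on the loss alone. Cldn2, a claudin of tight junctions (80.5, 108, 89.0, 101 and 98.5 CPM with shLUC and 42.2, 59.5, 51.3, 17.0 and 55.7 CPM with shPKLR), fell with the loss (-1.08, SE 0.22, adjusted p = 0.029). In the gain experiment it was at 81.8, 67.4, 82.5, 68.8 and 84.8 CPM with GFP and 92.7, 71.6, 65.8, 88.8 and 73.8 CPM with PKLR. The knockdown groups were apart and the overexpression groups covered each other, which gave a gain share of 0.02. Gsto1 and Slc17a2 rose with the loss (by 0.42 and 0.63) and had gain effects of -0.05 and -0.06. The call of the difference was lost under 10 of 32 alternatives for Cldn2, all of them single libraries left out, under 7 for Gsto1 and under 10 for Slc17a2. None of these one-sided genes had a called sum, so their asymmetry is not shown by that test. Gna14, a G protein subunit, had effects of opposite sign. It was at 0.558, 0.590, 0.409, 0.599 and 0.461 CPM with GFP and 2.35, 3.86, 2.37, 3.98 and 4.30 CPM with PKLR, without overlap, and at 7.48, 4.76, 2.93, 2.68 and 3.99 CPM with shLUC and 2.18, 3.72, 0.818, 1.91 and 0.988 CPM with shPKLR, where shPKLR replicate 2 lay inside the control range. Its effects were 2.67 and -1.18 and its difference 3.85 (SE 0.50, adjusted p = 0.00045). The sum of 1.49 was not called (adjusted p = 0.34).

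The interferon response had like signs in both experiments. Only Oasl1 of 28 tested genes (3.57%, beside 5.50% of all genes) was called in the difference (1.33, SE 0.31, adjusted p = 0.016). Positive effects in both experiments were seen in 23, beside 3199 of all 16407 genes tested. The median gain effect was 0.53, the median loss effect 0.51, and the median difference 0.05. The sum had an unadjusted p under 0.05 in 23 of the 28 genes, against 9.51% of all genes, with none past adjustment. Ifi44 had 1.37 and 0.64, Oasl2 0.998 and 0.84, and Xaf1 0.72 and 0.87.

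Zone markers were called at shares of 7.14% (pericentral) and 8.33% (periportal), near the 5.50% of all genes, while DESeq2 called 4 and 5 of them. Of 14 pericentral genes Glul, the glutamine synthetase around the central vein, was called higher (1.13, SE 0.21, adjusted p = 0.0047), and the list's medians were 0.37 with gain and -0.06 with loss. Of 12 periportal genes Pck1 was called lower, and the medians were -0.55 and 0.25. Slc10a1, the bile acid uptake transporter, was at 647, 850.4, 676, 738 and 731 CPM with shLUC, 581, 628, 426, 325 and 433 CPM with shPKLR, 209, 276, 403, 325 and 413 CPM with GFP and 555, 584, 553, 603 and 549.6 CPM with PKLR. Neither treated group overlapped its own control, and the difference was 1.41 (SE 0.25, adjusted p = 0.0027). Cyp46a1, which hydroxylates cholesterol, was the only other of 14 bile acid and sterol export genes (14.3% called) to be called (3.49, SE 0.66). Xenobiotic genes (40% called) split, 4 of 20 higher (Cyp2c37, Cyp2c50, Cyp2c54 and Ugt1a1) and 4 lower (Cyp3a11, Cyp2c55, Ephx1 and the nuclear receptor gene Nr1i2). Cyp3a11 had -1.19 with gain and 0.29 with loss. Of 21 genes with sex-biased or growth hormone-dependent expression 3 (14.3%) were called lower (Mup20, Cyp3a41a and Cyp3a44), and reads of all 3 may be shared with paralogs. The call of Mup20 was lost under 14 of 32 alternatives and that of Cyp3a41a under 3.

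Among the remaining lists, Gstm3 (-2.27) and Gsta1 (-3.31) of the redox genes were lower. In the insulin and FoxO1 list Pik3r1 (0.81) was higher and Igfbp1 and Sik1 (-1.40) lower. Esrrg, an orphan nuclear receptor, was the only hepatocyte transcription factor of 16 called (6.25%, beside 5.50% of all genes). Its difference was 2.52 (SE 0.47, adjusted p = 0.0042), at 3.10, 1.46, 0.839 and 2.22 CPM in shLUC, shPKLR, GFP and PKLR. Saa3, an acute phase gene, was lower (-2.18, SE 0.37) and Crp higher (0.69), with 10% of that list called. Of 12 unfolded protein response genes 1, Hyou1, was higher (8.33%, adjusted p = 0.034). The calls of Crp and Hyou1 were lost under 11 and 10 of 32 alternatives, that of Saa3 under 0. Of the 13 mitochondrially encoded mRNAs 3 (23.1%) were called higher (mt-Nd4l, 1.06, mt-Nd5, 0.89, and mt-Co1, 0.64), with list medians of 0.25 and -0.18. Without shPKLR replicate 4 and GFP replicate 1, 1 of them was called, and 1 was also the lowest count when single libraries were left out. Hcn3, a channel gene with a difference of 4.41, overlaps the 3′ end of Pklr by 711 bases on the opposite strand, so its counts may hold reads of Pklr. Among genes chosen by size alone, Chrna4, a nicotinic receptor subunit (4.42, SE 1.03), and Lrtm1 (4.03, SE 0.67) were higher, and Cib3 (-3.67, SE 0.87) and the pseudogene Gtpbp4-ps1 (-3.73, SE 0.65) lower.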

How the data were processed

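The authors deposited 2 tables of read counts per gene, 1 per experiment and not normalized. Per the submitters' processing notes, the tools and builds were HISAT2, DESeq2, GRCm38 and mm10, with no version. The sources used here give no counter, annotation release or strand setting, so values of paralogs and overlapping genes are uncertain. The tables list 27052 and 26286 genes and were joined on the 25238 identifiers in both. After filterByExpr, 16407 genes entered 1 edgeR 4.0.16 model (quasi-likelihood, robust, TMM, R 4.3.3) of 4 group means, with the difference, the sum and each effect as contrasts. A call is a Benjamini-Hochberg adjusted p under 0.05 over all genes. All adjusted p-values are from edgeR unless another tool is named. The SE is the log2 effect divided by the square root of F. Marker sums are CPM without TMM.

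Named genes were a fixed panel including Pklr, up to 2 calls per list, and the 4 highest and lowest gain shares. To these came the 8 largest differences and 4 smallest p in each direction among calls of at least 2 CPM with effects of opposite sign. Others were chosen after their values were seen. Members and lists were chosen with earlier results of these data known. On simulated counts of 16241 genes, 48.5% of 68 genes with a log2 difference of 1, 89.4% of 66 with 2 and 97.0% of 66 with 3 were called, and 7 of 16041 unchanged genes. Alternatives were RLE factors, TMM within each experiment, other filters, DESeq2 1.42.0, limma-voom (limma 3.58.1) with and without sample weights, replicate blocks, mitochondrial and rRNA genes left out, shPKLR replicate 4 thinned, each library left out, and shPKLR replicate 4 with GFP replicate 1 left out. Some genes are not reported here.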

Additional observations from a re-analysis of the deposited data

Results flagged for a closer look

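Within groups of 5 livers, 1 liver stood apart from the other 4 by Dixon's criterion in 26 of 304 groups tested, where chance gives about 1 in 20. These values are CPM with the range of the other 4 livers.

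GFP replicate 1 held 6 of the high or low values. It had 103.6 CPM of Acot1 (others 32.4 to 40.3), 71.5 of Acot2 (16.5 to 22.7), 10.1 of Cdk1 (1.14 to 3.57), 48.1 of Mki67 (2.90 to 11.01), 32.5 of Cyp3a41a (5.18 to 10.3) and 148 of Slc2a2 (230 to 253). GFP replicate 2 had 9.78 CPM of Asns (2.07 to 3.97) and 193 of Mttp (222 to 231).

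PKLR replicate 4 had the lowest Pklr of its group, 378 CPM (769 to 913), and PKLR replicate 5 the lowest Acacb, 90.7 CPM (152 to 174). PKLR replicate 3 was high in Acly at 812 CPM (324 to 454) and Gsto1 at 68.2 CPM (56.5 to 59.8). PKLR replicate 1 was high in Acot1 at 24.8 CPM (12.4 to 15.1), Gpnmb at 1.91 CPM (0.236 to 0.680) and Mki67 at 4.95 CPM (1.43 to 1.76).

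Among knockdown treated livers, shPKLR replicate 4 had 38.0 CPM of Csrp2 (23.1 to 26.3), replicate 2 had 2.38 of Esrrg (1.06 to 1.40), replicate 3 had 2.35 of Gpnmb (0.145 to 0.629), replicate 1 had 18.5 of Cyp3a41a (2.30 to 5.12) and replicate 5 had 25.0 of Acot2 (10.4 to 13.6). Among their controls, shLUC replicate 1 had 2.87 CPM of Saa3 (2.21 to 2.40), replicate 2 had 0.412 of Gtpbp4-ps1 (0.759 to 0.900), and replicate 4 had 77.2 of Gstm3 (24.5 to 37.0) and 4.05 of Cyp3a41a (3.12 to 3.30). Library totals stood apart in shLUC replicate 5, at 45413803 counts (31759565 to 34184038), and in shPKLR replicate 4, at 167891680 counts (29933820 to 35641640).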

How the results depend on the processing

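The difference was called for 902 genes, and under 10 of the 12 alternatives that do not leave out a single library the count stayed within 1.5 times of that, between 715 without a filter on low counts and 962 with the replicate block within each experiment. DESeq2 called 1626 genes, 883 of the 902 among them. The sum, called for 0 genes, gave 1 without a filter, 57 with DESeq2, 1 with sample-weighted limma-voom and 4 with the replicate block within each experiment. The gain effect gave 703 with DESeq2, 189 with limma-voom and 731 with sample weights. The loss effect gave 69 without a filter, 701 with DESeq2, 13 with sample weights, 36 with the replicate block shared by all groups and 7 with the block within each experiment. Leaving out shPKLR replicate 4 and GFP replicate 1 together, chosen after seeing the data, gave 524 calls in the difference, 129 in the gain effect and 17 in the loss effect. Same-numbered livers of an experiment correlated between -0.18 and 0.32 in their deviations from the group means. Differently numbered livers correlated between -0.37 and 0.37. These ranges overlap, and whether livers were paired by replicate number was not tested.

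With single libraries left out, counts ran from 485 to 1384 for the difference, 0 to 14 for the sum, 63 to 532 for the gain effect, 5 to 345 for the loss effect, 448 to 739 for reversed genes and 69 to 125 for separated genes, of which there were 68 with all libraries. The median gain share ran from 0.444 to 0.541 and the Pklr difference from 5.59 to 5.99. Of 82 named genes 75 were called, 49 of them under every alternative, and 7 were not. Among named genes only the uncalled difference of Mlxipl (-0.09, lowest -0.33 without PKLR replicate 2) changed sign, to 0.08 without shPKLR replicate 4 and GFP replicate 1, 0.01 without shLUC replicate 2, 0.20 without shPKLR replicate 4, 0.09 without GFP replicate 5 and 0.0017 without PKLR replicate 3. In the shPKLR group sample weights gave replicate 4 a weight of 0.10 and replicate 1 of 0.38.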

Other observations

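The genes named here were picked, after their values were seen, from the 68 genes whose groups did not overlap in either experiment, and no theme was tested. Ssr1 and Ssr3, subunits of the translocon-associated complex of the endoplasmic reticulum, had means of 92.1, 74.8, 75.1 and 93.6 CPM and 193, 149, 169 and 202 CPM in shLUC, shPKLR, GFP and PKLR. Their differences were 0.62 (edgeR adjusted p = 0.013) and 0.64 (adjusted p = 0.03). Lrrc59, a ribosome-binding membrane protein, had 68.6, 47.8, 52.2 and 69.0 CPM in the same order and a difference of 0.92 (adjusted p = 0.0037), and Tfg, of the vesicle exit sites, 0.80 (adjusted p = 0.0037). These are small, even shifts with sums of 0.02, -0.13, -0.12 and 0.04.

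Transporters and metabolic enzymes with the same non-overlapping pattern included Slc23a1, a vitamin C transporter (80.5, 50.9, 41.9 and 73.0 CPM in shLUC, shPKLR, GFP and PKLR, difference 1.46), Gbe1, the glycogen branching enzyme (1.49), Shmt1 (1.18) and Dmgdh (1.18) of 1-carbon metabolism, and Mlx, the partner of ChREBP (0.43, adjusted p = 0.034). Of the 68, only Abhd16a was not called in the difference (0.37, adjusted p = 0.096). Dnaic1, an axonemal dynein gene that neighbours and by 15 bases overlaps Enho, had the group means 0.04999, 0.443, 0.877 and 0.120 CPM in the same order and a difference of -6.02, where all groups are under 1 CPM.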
